A study of Mus musculus with 14 samples.

Results

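The comparison described here asked whether hyperoxia changed hippocampal transcripts differently in mice with and without gasdermin D. It joined all 14 libraries of the series in a single model, and all 14 were used. Newborn WT mice and their Gsdmd-KO littermates were kept in room air (RA, 21% O2) or in hyperoxia (85% O2) from postnatal day 1 to 14, and hippocampal RNA was taken on postnatal day 15. Each WT group (WT-RA and WT-O2) held 4 mice and each KO group (KO-RA and KO-O2) held 3, with 1 library per mouse. All mice were of the strain labelled C57/BL6, which the methods give as C57BL/6N for the KO line, and the KO was global, so that every cell type of the KO mice carried the allele from birth. According to the methods, the KO allele is a CRISPR allele that lacks a short stretch of one Gsdmd exon, and tail biopsies gave the genotype. For each gene, the interaction is the log2 fold change between O2 and RA in KO mice minus that in WT mice, so that 0 stands for an equal response in both genotypes. The average effect is the mean of those 2 log2 fold changes and is the complement of the interaction. Of the 36118 genes in the table, 16637 passed the filter on low counts and were tested for both.

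Gasdermin D is a protein that inflammatory caspases cut, and the released fragment opens pores in the cell membrane. The pores let interleukins leave the cell and can end in pyroptosis, an inflammatory form of cell death. High oxygen in the newborn period is used as a model of the exposure of preterm infants, in whom the developing vessels, glia and neurons of the brain are affected. Oxygen also sets the activity of pathways that act on many genes at once, among them hypoxia-inducible factors, the antioxidant response and the factors that control vascular tone. The fast genes of neuronal activity, the immediate early genes, respond within minutes to synaptic input, stress and handling.

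No gene passed the thresholds for the interaction. To be called, a gene had to be at least 25% higher, or lower by the same ratio, with a p below 0.05 and a Benjamini-Hochberg adjusted p (q) below 0.1 in edgeR's two-sided quasi-likelihood test. By that rule 0 of 16637 genes (0%) were called for the interaction, and the smallest q was 1. An unadjusted p below 0.05 was reached by 673 genes, or 4.05%, with edgeR, by 652 with DESeq2 and by 680 with limma-voom, and neither of the other tools called a gene. The average effect called 56 genes (0.337%), of which 26 were higher (0.156%) and 30 lower (0.18%) in O2, and 1960 genes (11.8%) had an unadjusted p below 0.05. The same fit called 107 genes (0.643%) for hyperoxia in WT mice and 2 genes (0.012%) in KO mice. Those 2 were Fos and Ier3, and both were among the 56. The smaller count in KO mice does not by itself show a smaller response, because the test of that difference is the interaction.

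The precision of the contrasts differed. The median standard error over all tested genes was 0.0791 for the average effect and 0.158 for the interaction, on the log2 scale. It was 0.103 for WT with 4 mice per group and 0.119 for KO with 3 mice per group. The median 95% interval of the interaction reached 0.338 to either side of the estimate. For 72.6% of genes this reach was within 1.5-fold and for 86.3% it was within 2-fold. For the remaining genes a difference in response of 2-fold could lie inside the interval, and a gene that was not called was not shown to respond equally.

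Some facts of the libraries bear on every value below. The libraries held 27272270 to 28257496 estimated counts each. Transcripts of Gsdmd, the targeted gene, were counted in all libraries, with 41 to 51 counts in WT-RA and 51 to 63 counts in WT-O2 libraries, against 22 to 42 counts in KO-RA and 36 to 40 counts in KO-O2 libraries. The KO libraries were therefore not free of Gsdmd transcripts, and the values, which sum over transcripts, do not show whether they carry the deletion. The labels of WT-O2 replicate 4 disagree, with hyperoxia in the title and room air as the treatment, and the title was followed. With that mouse counted as room air, the average effect called 1 gene, Fos, and with the mouse left out it called 43. All 19 markers of hippocampal fields were detected, with a summed level of 1500 to 2020 CPM in WT and 2370 to 2930 CPM in KO libraries. The 15 striatal markers summed to 700 to 1370 CPM in WT and to 383 to 490 CPM in KO libraries, and the part of this difference in the results was not tested beyond a fit with striatal and thalamic scores as covariates, which called 92 genes for the average effect and 0 for the interaction. The 16 choroid plexus markers summed to 204 CPM in KO-RA replicate 1 and 294 CPM in KO-O2 replicate 2, against 1400 to 4330 CPM in the other 12 libraries. Ddx3y, a gene of the Y chromosome, was at 37.5 CPM or more in 1 of 4 WT-RA, 3 of 4 WT-O2, 1 of 3 KO-RA and 1 of 3 KO-O2 libraries and at 0.565 CPM or less in the others, and the labels do not give the sex. The part of sex in the results was not tested beyond a fit with the Y-linked level as a covariate, which called 67 genes for the average effect, 50 of them among the 56, and 0 for the interaction. WT and KO mice carry separate ranges of animal numbers, so that genotype and anything that goes with those ranges cannot be told apart. Within WT mice, the RA and O2 groups also carry separate ranges, while the numbers of the KO groups interleave. Anything that goes with the WT ranges cannot be told apart from the WT response, which is a part of the interaction.

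The promoters of 4 of the called genes are shown first as examples: Ier3 and Apold1, which were higher in O2, and Fos and Fosb, which were lower. These 4 moved in the same direction in both genotypes without overlap between O2 and RA libraries. That held for 35 of the 56 called genes, so it does not set these 4 apart. The sequences are from RefSeq on GRCm38.p6, from 250 bases before to 50 bases after the start of the gene, 5′ to 3′ on the strand of the gene. Capitals mark matches on either strand to ACGTG, the core of the hypoxia response element, or to TGACG, the core of the cAMP response element, which reads CGTCA on the other strand.
Ier3, chr17:35821463-35821762, plus strand: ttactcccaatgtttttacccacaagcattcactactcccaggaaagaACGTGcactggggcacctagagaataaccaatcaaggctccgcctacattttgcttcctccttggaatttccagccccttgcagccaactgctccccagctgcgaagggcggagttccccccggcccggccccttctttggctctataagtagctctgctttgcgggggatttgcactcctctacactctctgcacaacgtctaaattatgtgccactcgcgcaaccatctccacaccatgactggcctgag
Apold1, chr6:134981751-134982050, plus strand: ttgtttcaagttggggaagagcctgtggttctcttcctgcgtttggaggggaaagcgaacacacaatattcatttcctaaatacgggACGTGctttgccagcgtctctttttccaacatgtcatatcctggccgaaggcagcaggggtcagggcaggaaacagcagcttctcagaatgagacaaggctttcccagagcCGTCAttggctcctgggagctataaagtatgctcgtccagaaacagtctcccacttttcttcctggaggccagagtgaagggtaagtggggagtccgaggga
Fos, chr12:85473640-85473939, plus strand: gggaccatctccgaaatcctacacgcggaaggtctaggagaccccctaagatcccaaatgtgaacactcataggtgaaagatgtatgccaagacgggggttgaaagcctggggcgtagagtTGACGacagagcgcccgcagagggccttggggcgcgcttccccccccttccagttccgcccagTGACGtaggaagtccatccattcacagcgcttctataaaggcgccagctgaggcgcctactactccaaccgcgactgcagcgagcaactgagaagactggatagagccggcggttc
Fosb, chr7:19309996-19310295, minus strand: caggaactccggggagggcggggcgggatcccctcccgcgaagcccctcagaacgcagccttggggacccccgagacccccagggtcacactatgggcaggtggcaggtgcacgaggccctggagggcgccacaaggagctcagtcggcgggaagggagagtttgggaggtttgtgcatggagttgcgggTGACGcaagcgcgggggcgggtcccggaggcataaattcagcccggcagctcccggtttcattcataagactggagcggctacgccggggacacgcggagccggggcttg
Ier3 held ACGTG 202 bases before its start, and Apold1 held ACGTG 163 bases and CGTCA 52 bases before its start. Fos held TGACG 129 and 66 bases before its start, and Fosb held it 60 bases before its start. Among the called genes with a promoter in the table, TGACG was found in 12 of the 22 lower genes (54.5%) and in 5 of the 23 higher genes (21.7%), against 32.2% of the 12415 tested genes with such a promoter. ACGTG, which is also the end of the E-box CACGTG, was found in 30.4% of the higher and 31.8% of the lower genes, against 27.3% of all. CACGTG itself was found in 17.4% of the higher and 22.7% of the lower genes, against 10.8% of all. The AP-1 motif TGANTCA was found in 13% of the higher and 4.55% of the lower genes against 6.54% of all, and the FoxO core GTAAACA in 4.35% and 9.09% against 3.19%. The CArG box of serum response factor was found in 0 of the 23 higher genes and in 1 of the 22 lower genes, against 1.58% of all. These shares describe letters in a window and are not evidence of binding, and no test was made because the genes were chosen by their response.

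The 56 genes called for the average effect were followed in each genotype. They were chosen on the mean of both responses, so that their values in WT and KO mice are a description. All 56 moved in the same direction in WT and KO mice. Taken in the direction of the average effect, the median log2 change was 0.65 in WT and 0.531 in KO mice, and the median interaction was -0.0792. The estimate of the response was larger in KO mice for 20 genes and smaller for 36. The estimate of the interaction was within that 25% limit for 43 of the 56, and its 95% interval included 0 for 53. Over all tested genes, the estimate was at or beyond that limit for 2793 of 16637, and the interval excluded 0 for 4%. These counts therefore do not set the 56 genes apart from the other tested genes. The interval lay within 1.5-fold for 25 genes and within 2-fold for 42, and for these a larger difference between the genotypes lay outside the 95% interval. O2 and RA libraries did not overlap in WT mice for 43 genes, in KO mice for 47 and in both for 35, where over all tested genes the shares were 5.99%, 11.8% and 0.841%. The plot of KO against WT responses shows the called genes, except 1 outside the axes, on either side of the line of equal response.

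**Figure D1:**
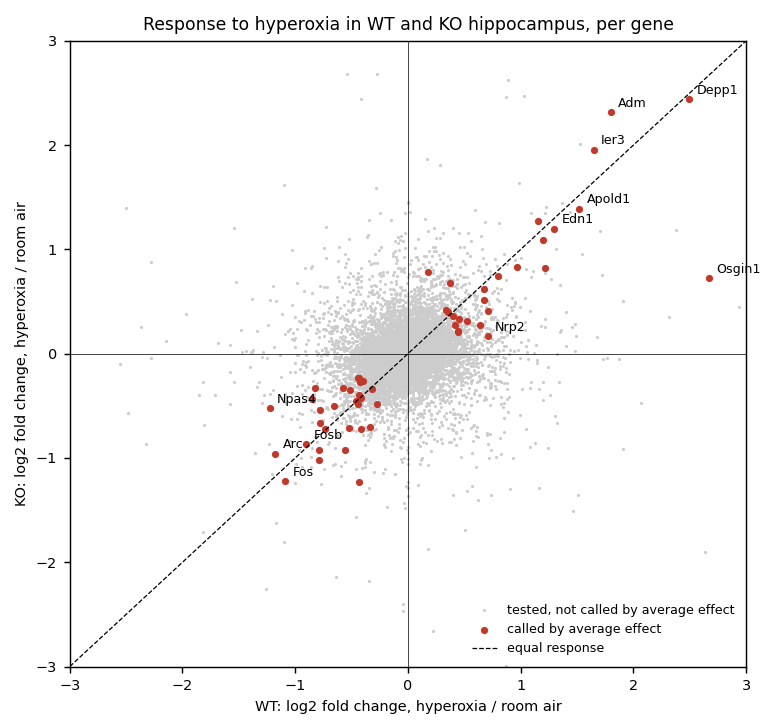
Log2 fold change between hyperoxia and room air in WT mice (x axis) and in KO mice (y axis) for each tested gene, with the genes called for the average effect in red and the line of equal response dashed. Of the 16637 genes, 28 lie outside the axes, 1 of them called. The red points lie in the quadrants of equal sign, with Depp1, Adm and Ier3 at the upper right and Fos and Arc at the lower left.

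Depp1, Adm, Ier3, Apold1 and Edn1 had the largest rises among the called genes with a mean of 1 CPM or more and with O2 and RA libraries apart in WT and in KO mice. Depp1, a target of FoxO transcription factors that regulates autophagy, had 2.25, 1.87, 0.813 and 1.51 CPM in the WT-RA and 7.99, 8.57, 6.80 and 13.0 CPM in the WT-O2 libraries. In KO mice it had 1.08, 0.350 and 2.92 CPM in RA and 8.45, 8.22 and 6.94 CPM in O2. Every O2 library was above every RA library of either genotype. Its average rise was 5.53-fold, a log2 change of 2.47 ± 0.31 (SE; q = 0.0033), with 2.50 in WT and 2.44 in KO mice. The interaction was -0.06, with a 95% interval from -1.38 to 1.27, so that the near equality of the estimates is known only within a wide range.

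Adm encodes adrenomedullin, a peptide that widens vessels and is induced by hypoxia-inducible factors. It was at 1.35, 1.37, 1.52 and 1.29 CPM in WT-RA and at 3.30, 5.16, 2.44 and 8.41 CPM in WT-O2. It was at 0.557, 1.05 and 1.32 CPM in KO-RA and at 6.44, 3.27 and 4.95 CPM in KO-O2. In WT mice the RA libraries were close together and the O2 libraries were spread widely. O2 and RA libraries did not overlap in either genotype. The average rise was 4.17-fold (log2 2.06 ± 0.27 SE, q = 0.00449), and the interaction of 0.52 had an interval from -0.66 to 1.69. For this gene too, a larger and a smaller response in KO mice both lay inside the interval.

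Ier3, an early response gene that acts on cell survival, was called in WT mice and was one of the 2 genes called in KO mice. Its levels were 4.40, 3.31, 2.01 and 3.19 CPM in WT-RA, 8.72, 9.75, 7.33 and 14.7 CPM in WT-O2, 1.86, 2.27 and 2.46 CPM in KO-RA and 9.24, 7.48 and 8.89 CPM in KO-O2. All 7 O2 libraries were above all 7 RA libraries. The log2 change was 1.65 in WT and 1.96 in KO mice (average 1.80 ± 0.18 SE, q = 0.000424), and the interaction was 0.31 with an interval from -0.44 to 1.06.

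Apold1, an early response gene of the vascular endothelium, had 7.13, 4.09, 4.49 and 3.55 CPM in WT-RA and 11.6, 14.3, 12.5 and 16.9 CPM in WT-O2. It had 3.79, 3.74 and 3.56 CPM in KO-RA and 11.1, 7.74 and 10.2 CPM in KO-O2. WT-RA replicate 1 was the highest RA library and still lay below every O2 library. The average rise was 2.74-fold (log2 1.45 ± 0.15 SE, q = 0.000431), with an interaction of -0.13 and an interval from -0.76 to 0.49.

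Edn1 encodes endothelin-1, which constricts vessels. It was at 4.84, 3.56, 1.62 and 4.12 CPM in WT-RA, 7.95, 8.21, 7.72 and 10.9 CPM in WT-O2, 2.93, 3.15 and 2.46 CPM in KO-RA and 7.62, 7.08 and 4.88 CPM in KO-O2. The groups did not overlap within a genotype, and KO-O2 replicate 3 stood close to the highest WT-RA library. The log2 change was 1.30 in WT and 1.20 in KO mice (average q = 0.0151), and the interaction was -0.10, from -0.92 to 0.71. Thus the transcripts for a peptide that widens vessels and for one that narrows them were both higher in O2 in both genotypes. The peptides were not measured here.

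The other 5 of the 10 largest rises were smaller. Maff, a small Maf factor that pairs with antioxidant and AP-1 factors, rose by 1.02 on the log2 scale (q = 0.0326), and Hic1, a transcriptional repressor, by 0.90 (q = 0.0692). Ppp1r3c, which targets protein phosphatase 1 to glycogen, went from 28.1 ± 1.45 to 49.0 ± 12.1 CPM in WT mice (SD, n = 4) and from 35.4 ± 1.75 to 59.5 ± 19.1 CPM in KO mice (SD, n = 3). Txnip, which binds thioredoxin and limits glucose uptake, went from 24.4 ± 6.94 to 39.0 ± 1.84 CPM in WT and from 33.7 ± 4.06 to 51.9 ± 7.52 CPM in KO mice. Bhlhe40, a repressor of the circadian clock that also responds to hypoxia, was at 46.5 ± 4.42 and 74.3 ± 14.2 CPM in WT-RA and WT-O2, and at 56.0 ± 1.49 and 79.8 ± 7.81 CPM in KO-RA and KO-O2. The estimated interactions of these 5 genes lay between -0.39 for Maff and -0.05 for Ppp1r3c and Txnip, and each interval included 0. Hic1 lost its call in 8 of the 14 fits with a library left out, and its q was highest, at 0.204, without KO-RA replicate 3.

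**Figure D2:**
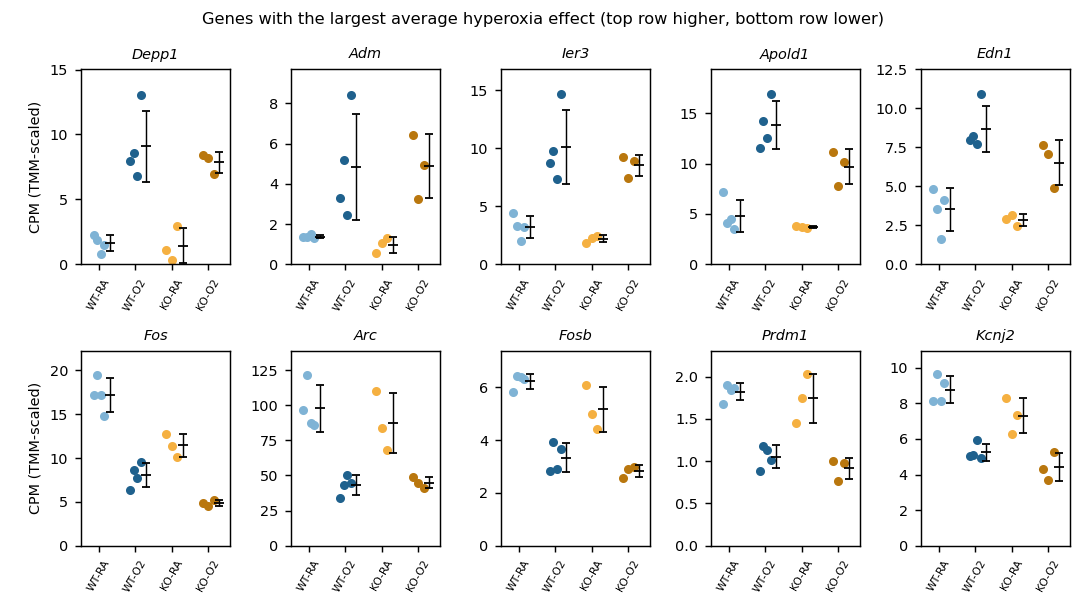
TMM-scaled CPM in each library of the 5 genes with the largest rise (top row) and the 5 with the largest fall (bottom row) among the called genes without overlap in either genotype. Points are mice, and bars are the mean ± SD of 4 WT or 3 KO mice per group. In each panel the O2 points lie on one side of the RA points within WT and within KO, for example 4.58 to 5.25 CPM against 10.2 to 12.8 CPM for Fos in KO mice.

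By the same rule, Fos, Arc, Fosb, Prdm1 and Kcnj2 fell most, of which the first 3 are immediate early genes. Fos, a subunit of the AP-1 transcription factor, had 17.2, 19.5, 17.2 and 14.8 CPM in WT-RA and 6.34, 8.60, 7.79 and 9.57 CPM in WT-O2. It had 12.8, 11.4 and 10.2 CPM in KO-RA and 4.90, 4.58 and 5.25 CPM in KO-O2. Every O2 library was below every RA library. The fall was 2.23-fold on average (log2 -1.16 ± 0.10 SE, q = 0.0001003), with -1.09 in WT and -1.22 in KO mice, and the interaction of -0.13 had an interval from -0.54 to 0.28. Fos was called for the average effect in all 30 alternatives that gave it a value, with log2 changes from -1.199 to -1.088.

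Arc, whose product acts at synapses and is used as a marker of recent activity, was at 96.2, 122, 87.1 and 85.7 CPM in WT-RA and at 34.0, 43.4, 50.5 and 45.0 CPM in WT-O2. It was at 110.1, 83.6 and 68.4 CPM in KO-RA and at 49.0, 44.8 and 40.95 CPM in KO-O2. All O2 libraries were below all RA libraries. The average fall was 2.1-fold (log2 -1.07 ± 0.11 SE, q = 0.0006965), and the interaction was 0.22, from -0.27 to 0.70.

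Fosb, a gene of the same family as Fos, went from 6.23 ± 0.280 to 3.34 ± 0.560 CPM in WT mice (SD, n = 4) and from 5.17 ± 0.852 to 2.83 ± 0.221 CPM in KO mice (SD, n = 3). Its interaction was 0.03, from -0.41 to 0.47, so that a difference of response of 1.5-fold in either direction lay outside the interval. Prdm1, a transcriptional repressor, fell by 0.86 and Kcnj2, an inward rectifier potassium channel that holds the resting potential, by 0.73 on the log2 scale, with interactions of -0.14 and 0.01. Kcnj2 ran from 8.13 to 9.65 CPM in WT-RA, from 4.91 to 5.95 CPM in WT-O2, from 6.30 to 8.28 CPM in KO-RA and from 3.71 to 5.25 CPM in KO-O2.

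Egr1 and Npas4 had the largest positive interaction estimates of the called immediate early genes, which stands for a smaller fall in KO mice. Egr1, a zinc finger factor of synaptic plasticity, was at 139.8, 187, 212 and 153 CPM in WT-RA and at 86.8, 109.7, 98.5 and 89.0 CPM in WT-O2. In KO mice it was at 129, 130.2 and 95.5 CPM in RA and at 75.0, 93.3 and 94.4 CPM in O2. The groups were apart in both genotypes, though in KO mice by a narrow margin, and the KO-RA libraries lay below the WT-RA libraries. The log2 change was -0.85 in WT and -0.43 in KO mice, and the interaction of 0.42 (interval -0.02 to 0.86, unadjusted p = 0.0612) did not pass the test. Npas4, a factor induced by neuronal activity, had 17.8, 21.1, 26.8 and 20.1 CPM in WT-RA, 7.84, 13.4, 7.90 and 7.64 CPM in WT-O2, 13.2, 11.3 and 7.58 CPM in KO-RA and 5.76, 9.50 and 7.09 CPM in KO-O2. Its groups overlapped in KO mice, and its interaction was 0.70 (interval -0.01 to 1.41, unadjusted p = 0.0519, q = 1). For both genes the mean was lower in KO-RA than in WT-RA mice and was not raised in KO-O2 mice relative to WT-O2 mice.

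Of the 17 immediate early genes listed, all were tested, 6 were called lower (Fos, Arc, Fosb, Egr1, Npas4 and Egr2) and 0 higher, against 0.18% of all genes called lower. The average log2 change was negative for 14 of the 17, with a median of -0.331 against -0.00428 over all genes. The median was -0.514 in WT and -0.300 in KO mice. The median interaction of the list was 0.0471, against 0.00349 over all genes, and 1 member, Fosl2, had an unadjusted interaction p below 0.05. The median interaction was -0.04 without KO-RA replicate 3 and 0.167 without WT-RA replicate 3, so that its sign depended on a single library. Egr2, a zinc finger factor like Egr1, had the highest q of the 6 (0.0928), with a log2 change of -0.91.

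The other 5 of the 10 largest falls included Clk1 and Slc19a3. Clk1, a kinase of splicing factors, was at 71.0 ± 4.92 CPM in WT-RA, 45.0 ± 6.72 CPM in WT-O2, 78.7 ± 13.2 CPM in KO-RA and 55.7 ± 6.35 CPM in KO-O2, an average log2 change of -0.58 (q = 0.0123). Clk4, a kinase of the same family, fell by 0.35 (q = 0.0693). Cirbp, a cold-inducible RNA-binding protein, rose by 0.38 (q = 0.0501). Of the 15 listed genes of heat shock and cold response, to which these 3 belong, Cirbp was the single member called higher and Clk1 and Clk4 were the 2 called lower, where 0.156% of all genes were called higher and 0.18% lower, and the median of the list was -0.0325 (-0.0207 without WT-O2 replicate 2). Kbtbd8, an adaptor of a ubiquitin ligase, fell by 0.66 (q = 0.0397), Zfp418, a zinc finger gene, by 0.72 (q = 0.0497), and Slc19a3, a thiamine transporter, by 0.62 (q = 0.0817). Slc19a3 lost its call in 10 of the 14 fits with a library left out. Of the 20 genes with the largest rises and falls, 13 kept their call with each library left out in turn. The other 7 lost it without KO-RA replicate 3, with q = 0.12 for Maff, 0.204 for Hic1, 0.114 for Ppp1r3c, 0.109 for Txnip, 0.168 for Zfp418, 0.141 for Kbtbd8 and 0.234 for Slc19a3. Zfp418, Zfp235, Zfp82 and Zfp882 belong to a family of similar genes among which estimated counts can be shared out, and their values are less certain for that reason.

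Another 23 genes were called for the average effect, and those given by name here were chosen after their values were seen. Of these, 11 were higher in O2, with average log2 changes from 0.33 for Gpc4 and Pxylp1 to 1.21 for Crispld2 and interactions from -0.37 for Tspan18 to 0.30 for Icam1. Icam1, an adhesion molecule that holds leukocytes at the vessel wall, was at 3.96, 3.13, 4.59 and 3.26 CPM in WT-RA, 4.21, 4.62, 5.17 and 5.36 CPM in WT-O2, 3.68, 3.57 and 2.88 CPM in KO-RA and 5.19, 5.32 and 5.66 CPM in KO-O2. Its groups overlapped in WT mice and were apart in KO mice, with an average change of 0.52 (q = 0.0692). The other 12 genes were lower, with average changes from -0.83 for Gm2004 to -0.33 for Phlda1 and interactions from -0.80 for Gm2004 to 0.50 for Otud1. Among them, Tob1, which restrains cell division, was at 40.5 ± 3.87 CPM in WT-RA, 27.1 ± 3.43 CPM in WT-O2, 33.0 ± 3.23 CPM in KO-RA and 26.3 ± 2.94 CPM in KO-O2 (q = 0.0326). Klf6, a zinc finger factor of stress and injury, fell by 0.34. The 95% interval of the interaction included 0 for each of these 23 genes.

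**Figure D3:**
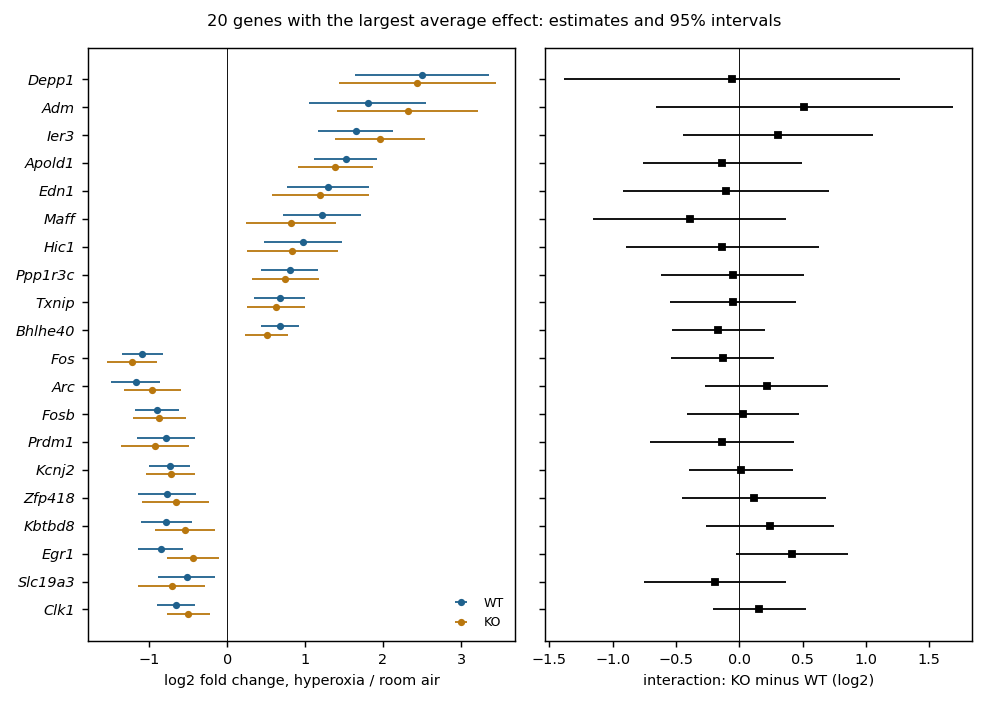
Left, log2 fold change between hyperoxia and room air in WT and KO mice with 95% intervals for the 10 largest rises and the 10 largest falls. Right, the interaction (KO minus WT, log2) of the same genes with its 95% interval. Every interval on the right includes 0, and the widest is that of Depp1, from -1.38 to 1.27.

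Of the 56 genes, 3 had a 95% interval of the interaction that excluded 0, where 4% of all tested genes did: Nrp2, Osgin1 and Ap1g2. They were singled out after their values were seen, and none passed the adjustment over all genes. Nrp2 encodes neuropilin-2, a receptor for class 3 semaphorins and for vascular endothelial growth factors. It was at 69.3, 70.4, 44.4 and 64.9 CPM in WT-RA and at 103, 104.4, 102 and 97.3 CPM in WT-O2. In KO mice it was at 114, 98.8 and 93.8 CPM in RA and at 103, 121 and 121 CPM in O2. The WT-O2 libraries overlapped those of both KO groups, and the WT-RA libraries were below all others. The log2 change was 0.71 in WT and 0.17 in KO mice, with an interaction of -0.54 (interval -0.92 to -0.16, unadjusted p = 0.00841, q = 1). Osgin1, an oxidative stress-induced growth inhibitor, was at a mean of 0.0984 CPM in WT-RA, 0.648 CPM in WT-O2, 0.440 CPM in KO-RA and 0.732 CPM in KO-O2, with an interaction of -1.95 (interval -3.52 to -0.37, unadjusted p = 0.0144). Such levels correspond to few counts per library. Ap1g2, a subunit of a clathrin adaptor complex, was the opposite case, at 5.49 ± 0.424 and 6.19 ± 0.204 CPM in WT-RA and WT-O2 (SD, n = 4) and at 6.28 ± 0.563 and 10.8 ± 2.48 CPM in KO-RA and KO-O2 (SD, n = 3), with an interaction of 0.61 (interval 0.19 to 1.03, unadjusted p = 0.00723). Gm49373, a gene at a mean of 0.272 CPM over all libraries, was among the 56 and had no counts in any KO-O2 library, so its fitted change is not given.

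The 10 genes of at least 1 CPM with the smallest interaction p did not pass the threshold and are described only because they ranked first. Over all 16637 tested genes, 8 had an unadjusted interaction p below 0.001 and 4.05% had one below 0.05. That share is no larger than chance alone would give at this cutoff. The genes were chosen by p, so intervals that exclude 0 follow from the choice. Slc11a2, an iron and divalent metal transporter, was at 36.4, 33.9, 36.1 and 35.5 CPM in WT-RA, 34.0, 32.2, 32.1 and 32.3 CPM in WT-O2, 33.0, 31.2 and 32.7 CPM in KO-RA and 38.4, 40.4 and 36.7 CPM in KO-O2. The KO-O2 libraries were the highest of all, and the WT groups overlapped slightly. The change was small, with an interaction of 0.37 (interval 0.21 to 0.53, unadjusted p = 0.000206).

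Car7, a carbonic anhydrase of neurons, was at 17.4, 16.3, 22.0 and 15.0 CPM in WT-RA, 11.8, 11.8, 11.4 and 12.3 CPM in WT-O2, 13.0, 15.4 and 15.7 CPM in KO-RA and 17.0, 16.9 and 15.8 CPM in KO-O2. WT-O2 was the lowest group, without overlap with any other. Its WT change of -0.58 was called (q = 0.0495), and the interaction was 0.75 (interval 0.41 to 1.09, unadjusted p = 0.000304, q = 1).

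Numb, an inhibitor of Notch signalling that is divided unequally between daughter cells of neural progenitors, was at 30.6, 32.8, 37.0 and 31.0 CPM in WT-RA. The other groups were lower and overlapped one another, with 20.8 to 23.5 CPM in WT-O2, 22.7 to 23.6 CPM in KO-RA and 20.8 to 23.2 CPM in KO-O2. The interaction was 0.49 (interval 0.27 to 0.71, unadjusted p = 0.000325), and the WT change of -0.55 was called (q = 0.00592). As with Nrp2, the group that stood apart was WT-RA.

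Rorb and Prickle1 had the same arrangement of groups. Rorb, a nuclear receptor of cortical layer neurons, had a mean of 19.5 ± 2.65 CPM in WT-RA, 13.5 ± 2.11 CPM in WT-O2, 10.8 ± 1.15 CPM in KO-RA and 12.9 ± 1.29 CPM in KO-O2, with an interaction of 0.79 (interval 0.38 to 1.20, unadjusted p = 0.000945). Prickle1, a planar cell polarity gene, had 86.5 ± 5.95, 65.8 ± 7.11, 58.7 ± 1.18 and 60.6 ± 3.25 CPM in the same order, with an interaction of 0.44. Rorb is also a member of the listed markers of subplate and deep cortex, whose summed level was 551 to 888 CPM in WT-RA, 596 to 691 CPM in WT-O2, 456 to 597 CPM in KO-RA and 465 to 553 CPM in KO-O2, and the part of cortical tissue in its change was not tested.

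Tmem35a, a chaperone of nicotinic acetylcholine receptors, Lingo2, a membrane protein with leucine-rich repeats, and Abca8a, a lipid transporter, had negative interaction estimates. Tmem35a was at 48.8 ± 6.41 and 64.1 ± 3.54 CPM in WT-RA and WT-O2 and at 52.4 ± 3.70 and 47.4 ± 2.41 CPM in KO-RA and KO-O2, with an interaction of -0.54. Lingo2 was at 23.2 to 24.2 CPM in WT-RA, 27.9 to 30.1 CPM in WT-O2, 21.1 to 22.6 CPM in KO-RA and 18.7 to 21.7 CPM in KO-O2, with an interaction of -0.38. Abca8a was at 3.15 to 4.70, 5.75 to 8.36, 4.35 to 6.40 and 3.52 to 5.33 CPM in the same order, with an interaction of -1.08. In all 3 the WT-O2 libraries did not overlap the WT-RA libraries, and the KO groups overlapped.

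Fosl2 and Runx2 were apart between the KO groups. Fosl2, an AP-1 subunit, was at 27.1 to 33.2 CPM in WT-RA, 29.7 to 48.1 CPM in WT-O2, 47.6 to 58.2 CPM in KO-RA and 34.8 to 40.5 CPM in KO-O2, with an interaction of -0.78 (interval -1.17 to -0.38). Runx2, a transcription factor known from bone, was at 6.64 to 7.85, 5.97 to 7.6, 7.37 to 9.21 and 10.5 to 12.3 CPM in the same order, with an interaction of 0.65 (interval 0.31 to 0.99). The KO groups did not overlap for either gene, and the WT groups did. The interactions of all 10 genes kept their direction in the 29 alternatives with a value, and no alternative called any of them. The alternatives reuse the same libraries, so the kept direction is not separate support.

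**Figure D4:**
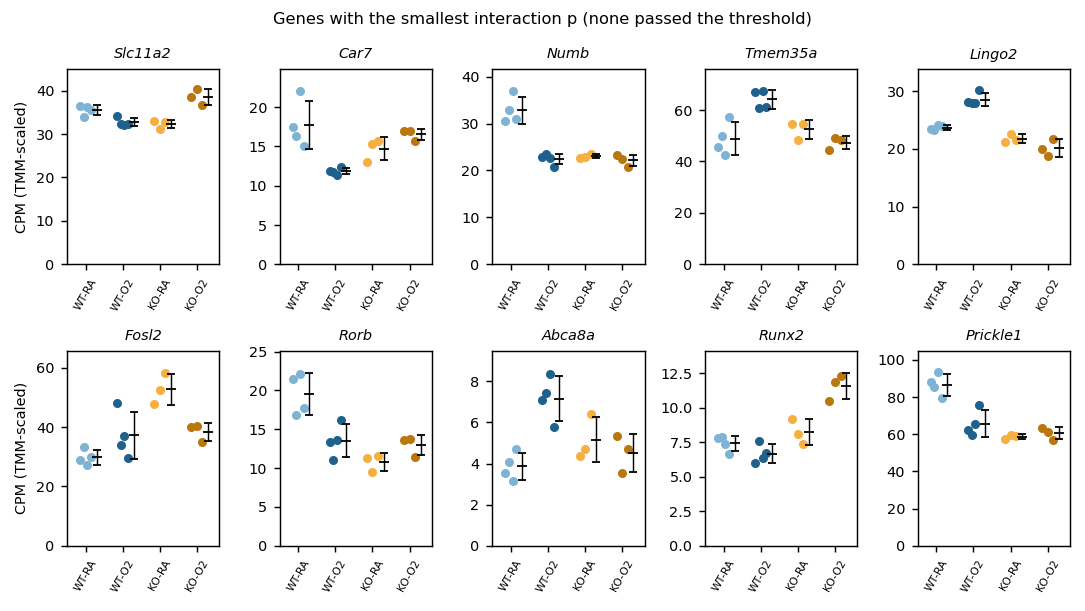
TMM-scaled CPM in each library of the 10 genes of at least 1 CPM with the smallest interaction p, none of which passed the threshold. Points are mice, and bars are the mean ± SD of 4 WT or 3 KO mice per group. WT-RA stands apart for Numb and Prickle1, WT-O2 for Car7 and Lingo2, and KO-O2 for Slc11a2 and Runx2.

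A further view is given by the 107 genes called in WT mice, whose KO values come from other libraries and share with them only the estimate of the spread. Of these, 81 moved in the same direction in KO mice and 26 in the opposite one. The 95% interval of the KO change excluded 0 in the same direction for 32 genes, in the opposite direction for 0, and included 0 for 75, where over all genes 4.78% of KO intervals excluded 0 in either direction. In the direction of the WT change, the median log2 change was 0.52 in WT mice, which chose the genes, and 0.123 in KO mice. The KO estimate was at least 50% of the WT estimate on the log2 scale for 31 of the 107. The genes were chosen on their WT values, so that the 2 medians do not measure a difference between the genotypes. Over all tested genes, O2 and RA libraries were apart in both genotypes in the same direction for 140 genes, 66 higher (0.397%) and 74 lower (0.445%), and in opposite directions for 15 (0.0902%).

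The genes that the study followed by staining or qRT-PCR were examined in the same model. Gsdmd had a mean of 1.64 ± 0.140 CPM in WT-RA, 2.09 ± 0.183 CPM in WT-O2, 1.19 ± 0.336 CPM in KO-RA and 1.39 ± 0.0943 in KO-O2. The WT groups did not overlap and the KO groups did, with an average log2 change of 0.29 (q = 0.433) and an interaction of -0.12 (interval -0.71 to 0.47). Edn1, Ier3 and Bhlhe40 were called for the average effect. For these 3 genes the interaction estimates ran from -0.17 for Bhlhe40 to 0.31 for Ier3.

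The inflammatory genes of the study were not called. Il33, an alarmin of glia, was at 11.2, 10.9, 5.97 and 13.4 CPM in WT-RA, 13.6, 15.3, 13.0 and 14.8 CPM in WT-O2, 9.73, 9.38 and 11.6 CPM in KO-RA and 9.63, 7.96 and 9.0 CPM in KO-O2. WT-RA replicate 3 was low and the WT groups overlapped, with an interaction of -0.66 (interval -1.24 to -0.08, unadjusted p = 0.0289, q = 1). Il18 and Il1r1, an inflammasome cytokine and the interleukin-1 receptor, had interactions of -0.07 (interval -0.33 to 0.19) and 0.10 (interval -0.50 to 0.71). Il1b had 0 to 10 and Il6 0 to 7 estimated counts per library, and neither passed the filter on low counts, so no difference is given for them. Of the 15 tested members of the 21 listed inflammasome and cytokine genes, 0 were called for either contrast, against 0.337% of all genes for the average effect and 0% for the interaction. The median of the list was 0.0405 for the average effect, from 0.00232 without WT-O2 replicate 4 to 0.0915 without KO-RA replicate 2. For the interaction it was -0.0173 and changed sign, from -0.0969 without KO-O2 replicate 1 to 0.0321 without KO-RA replicate 2. The member with the largest negative interaction was Casp1, the inflammatory caspase that cuts gasdermin D. It was at 0.837, 1.02, 0.919 and 0.897 CPM in WT-RA, 1.5, 1.69, 1.34 and 1.16 CPM in WT-O2, 2.08, 2.66 and 2.46 CPM in KO-RA and 1.54, 2.24 and 1.69 CPM in KO-O2. The WT groups were apart, the KO groups overlapped, and both KO groups lay above WT-RA (interaction -1.02, interval -1.61 to -0.44, unadjusted p = 0.00193, q = 1).

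The cell type markers of the study were not called. Aif1 and Cd68, markers of microglia, had average log2 changes of 0.07 each, with interactions of 0.21 (interval -0.39 to 0.81) and -0.04 (interval -0.32 to 0.25). None of the 18 microglial genes was called, where 0.337% of all genes were called for the average effect and 0% for the interaction. Their median was 0.0215 for the average effect, from 0.00384 without KO-O2 replicate 1 to 0.052 without WT-O2 replicate 4. It was -0.0254 for the interaction and changed sign, from -0.0461 without KO-O2 replicate 1 to 0.0455 without KO-O2 replicate 2. Mki67, a marker of dividing cells, and Sox2, a marker of neural stem cells, had interactions of -0.26 (interval -0.65 to 0.13) and near 0 (interval -0.25 to 0.25). Rbfox3, which encodes NeuN, had an average change of 0.01 and an interaction of 0.04. Gfap, the filament protein of astrocytes, was at 258 ± 29.5 CPM in WT-RA, 316 ± 23.6 CPM in WT-O2, 352 ± 14.6 CPM in KO-RA and 387 ± 28.2 CPM in KO-O2, an average change of 0.21 (unadjusted p = 0.00394, q = 0.205) with an interaction of -0.15. In bulk tissue, fewer cells of a type and less RNA per cell cannot be told apart.

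The lists of pathways and cell types gave further detail on the average effect. Of 22 genes listed for VEGF and endothelin signalling, 3 were called higher, Apold1, Edn1 and Nrp2, and 0 lower, against 0.156% of all genes called higher. The median was 0.106 against -0.00428 over all genes. Apold1 is an early response gene of the vascular endothelium and not a ligand or receptor of either pathway. Ednrb, the endothelin receptor of astrocytes, had a change of 0.30 (q = 0.0953), under the fold minimum. Of 26 genes of hypoxia and glycolysis, Adm alone was called, in the higher direction as were 0.156% of all genes, and the median was 0.0295 with all libraries and 0.000339 without WT-O2 replicate 4. An unadjusted p below 0.05 for the average effect was reached by 6 of the 26, all higher. Over all 16637 genes, 939 reached it in the higher and 1021 in the lower direction. Vegfa, the main vascular growth factor, was at 56.7, 54.2, 56.8 and 59.1 CPM in WT-RA and at 68.2, 106, 51.3 and 146 CPM in WT-O2, and at 51.3, 60.9 and 69.8 CPM in KO-RA and 114, 80.8 and 104.5 CPM in KO-O2. The WT-O2 libraries were spread from below WT-RA to far above it, the KO groups were apart, and the change of 0.72 was not called (q = 0.136). Of 23 glucocorticoid and FoxO targets, Depp1 and Txnip were called higher and 0 lower, and of 19 clock genes Bhlhe40 was called higher, where the share of all genes called higher was 0.156%. Of 28 axon guidance genes, Nrp2 was called higher, against the same 0.156%, and 22 had a positive estimate, against 8046 of all 16637 genes, with a median of 0.0714. With each library left out, the median of the VEGF list ran from 0.0676 without WT-RA replicate 3 to 0.122 without WT-RA replicate 4. That of the axon guidance list ran from 0.0518 without WT-RA replicate 4 to 0.112 without KO-RA replicate 1.

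Abcc9, a channel subunit of pericytes, was the single gene called among 24 endothelial and mural genes, against 0.18% of all genes called lower, at 15.5 ± 1.53 CPM in WT-RA, 11.4 ± 0.953 CPM in WT-O2, 13.1 ± 1.22 CPM in KO-RA and 9.35 ± 2.20 in KO-O2. Its average change was -0.47 (q = 0.0743) and its interaction -0.04. Of the 24 genes, 7 were lower and 2 higher with an unadjusted p below 0.05 for the average effect. Over all 16637 genes, 1021 were lower and 939 higher by that measure. The summed level of the list was 712 to 824 CPM in WT-RA, 719 to 785 CPM in WT-O2, 749 to 829 CPM in KO-RA and 601 to 863 CPM in KO-O2, so that the groups overlapped. None of the 22 antioxidant genes targeted by NRF2 and none of the 24 cell cycle genes was called for either contrast, where the shares of all genes were 0.337% for the average effect and 0% for the interaction.

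For the interaction, 0 members of the 26 lists were called. The median interaction was farthest from that of all genes for hemoglobin and erythroid genes (0.462), myelin and oligodendrocyte genes (0.443) and interferon response and MHC class I genes (0.422). The 19 myelin and oligodendrocyte genes had a median change of -0.508 in WT and -0.0407 in KO mice, and none of them had an interaction p below 0.05. Their summed level ran from 8930 to 21600 CPM in WT-RA, 5830 to 14700 CPM in WT-O2, 4140 to 6360 CPM in KO-RA and 4140 to 6910 CPM in KO-O2, and the WT libraries thus spanned a wider range than the KO libraries, and the part of this spread in the list's interaction was not tested. Without KO-O2 replicate 1 the median interaction of the list was 0.196 and without WT-O2 replicate 4 it was 0.716. The median of the 8 hemoglobin and erythroid genes was 0.0733 without KO-O2 replicate 1, 0.289 without KO-RA replicate 3, 0.74 without KO-O2 replicate 2 and 0.754 without KO-RA replicate 2. Of the 22 interferon and MHC class I genes, 6 had an unadjusted interaction p below 0.05, all positive, against 4.05% of all genes in either direction. Ifit1, an interferon-induced gene, was at 0.946, 3.59, 0.318 and 1.11 CPM in WT-RA and at 0.323 to 0.850 CPM in WT-O2, 0.594 to 0.783 CPM in KO-RA and 0.823 to 1.21 CPM in KO-O2, with an interaction of 2.20 (unadjusted p = 0.0181, q = 1). WT-RA replicate 2 was high for this gene, and without it the median interaction of the list was 0.225. The choroid plexus list had a median interaction of -0.193, which ran from -0.779 without KO-O2 replicate 3 to 0.295 without KO-O2 replicate 2, the latter a library low in these transcripts.

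**Figure D5:**
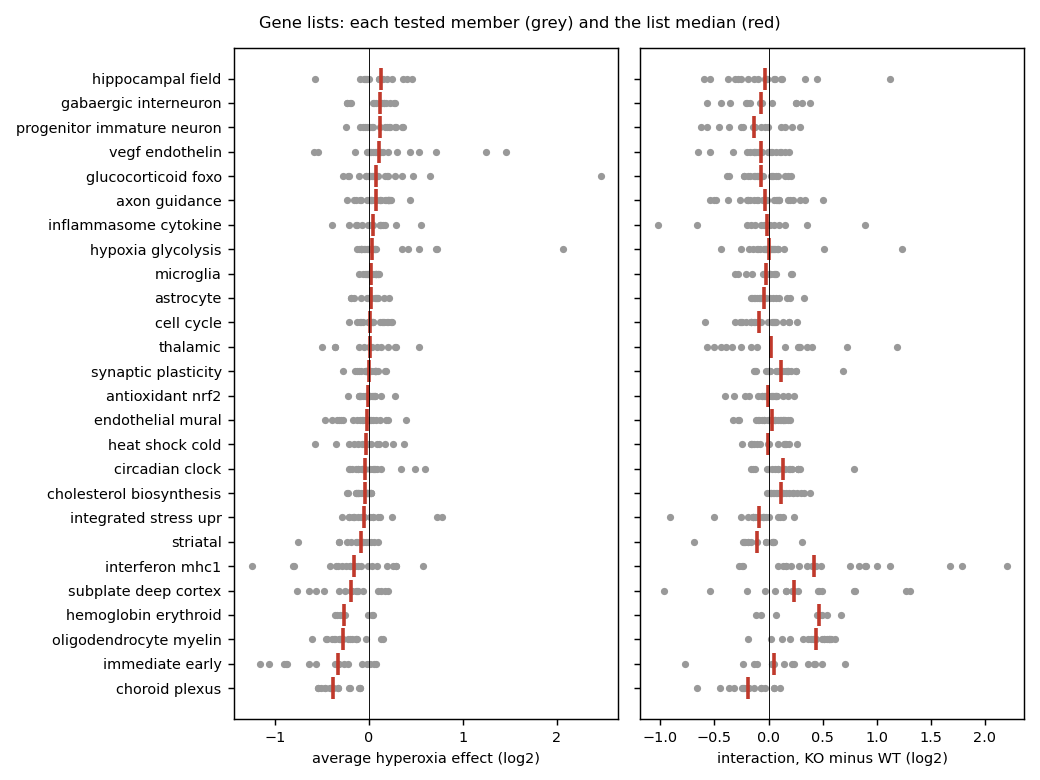
Log2 values of each tested member (grey) and the median (red) of 26 gene lists for the average hyperoxia effect (left) and the interaction (right). Immediate early genes lie to the left of 0 for the average effect with a median of -0.331 and have a median interaction of 0.0471 (-0.04 without KO-RA replicate 3), while the interferon, myelin and hemoglobin lists have the highest median interactions.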

How the data were processed

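Polyadenylated RNA of 14 hippocampi was sequenced in pairs, with 1 library per mouse. The authors deposited estimated counts per gene, made by kallisto against transcripts of GRCm39 and summed to genes, per the labels and the methods. Versions and the scaling of the summed counts are not given in the sources used here. Between 41% and 43.2% of values per library were not whole. Symbols were matched for 35825 of 36118 genes, and 37 symbols were shared by several genes. Kallisto shares reads of similar transcripts by estimation, and use of strand is not given, so families and overlapping genes are less certain.

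Counts were rounded, filtered with edgeR's filterByExpr (16637 genes left) and scaled by TMM. The fit had a coefficient for each of the 4 groups and no covariates (edgeR 4.0.16, R 4.3.3). The interaction, the average effect and the responses in WT and KO were tested by two-sided quasi-likelihood F-tests adjusted by Benjamini and Hochberg's method over 16637 genes. Calls required a fold change of 1.25, a p below 0.05 and a q below 0.1. Standard errors and 95% intervals used the model's quasi-dispersions. CPM is TMM-scaled. Each mouse is a separate animal.

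The named genes are the 10 largest rises and falls among genes called for the average effect, of at least 1 CPM and without overlap in either genotype, the 10 genes of at least 1 CPM with the smallest interaction p, the genes the study stained or measured by qRT-PCR, up to 4 members per list, and others named as chosen after their values were seen. The members and the lists were chosen with earlier results of these data known. The script was tested on simulated data. Alternatives included DESeq2 1.42.0, limma-voom (limma 3.58.1), other scalings, filters and thresholds, covariates, the other label of WT-O2 replicate 4 and each library left out. Of the called genes, 45 had a promoter in the RefSeq table, and sequences of the others were not used here. A planned fit with Xist as a covariate was not analysed here, and the Y-linked level took its place, chosen after the data were seen. Staining and qRT-PCR were not analysed here. Of the genes covered by these rules, 2 are not reported here.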

Additional observations from a re-analysis of the deposited data

Results flagged for a closer look

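Among the groups of 4 WT mice, 5 named genes had 1 library far from the others, out of 82 groups tested for 41 genes, where chance alone marks about 1 in 20 groups. For Edn1, WT-O2 replicate 4 was at 10.9 CPM against 7.72 to 8.21 CPM in the other 3 mice. Fosb was at 5.82 CPM in WT-RA replicate 1 against 6.31 to 6.41 CPM. Slc11a2 was at 34.0 CPM in WT-O2 replicate 1 against 32.1 to 32.3 CPM, and Lingo2 at 30.1 CPM in WT-O2 replicate 4 against 27.9 to 28.1 CPM. Gfap was at 214 CPM in WT-RA replicate 3 against 268 to 278 CPM.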

How the results depend on the processing

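The interaction called 0 genes in all 29 alternatives, and its smallest q ran from 0.116 without WT-RA replicate 1, 0.253 with DESeq2 and 0.28 without WT-RA replicate 4 to 1. The count for the average effect (56) became 134 with DESeq2 (55 shared), 27 at a fold change of 1.5, 96 with no fold minimum, 21 at q below 0.05, 92 with striatal and thalamic scores as covariates, 1 with WT-O2 replicate 4 as room air and 20 without both KO libraries low in choroid plexus transcripts, an alternative chosen after the data were seen. With each library left out it ran from 16 (without KO-RA replicate 3) to 109 (without WT-RA replicate 1), and it was 31 without WT-RA replicate 2, 32 and 21 without WT-O2 replicates 1 and 2, 28 without KO-RA replicate 1 and also without replicate 2, 27 without KO-O2 replicate 1 and 20 without KO-O2 replicate 3. The count in WT (107) became 310 with DESeq2, 46 at a fold change of 1.5, 22 at q below 0.05, 216 with striatal and thalamic scores and 6 with WT-O2 replicate 4 as room air, and ran from 13 (without WT-O2 replicate 2) to 272 (without WT-RA replicate 1) with each library left out. It was 22 and 177 without WT-RA replicates 2 and 4, 33 and 59 without WT-O2 replicates 1 and 3 and 64 without KO-RA replicate 2. The count in KO (2) became 13 with DESeq2, 1 with limma-voom, 6 without a filter, 5 with striatal and thalamic scores, 4 with a choroid plexus score, 0 with WT-O2 replicate 4 as room air and 0 without the KO libraries low in choroid plexus transcripts, and ran from 1 (without KO-RA replicate 1 or 2) to 4 (without WT-O2 replicate 4, KO-RA replicate 3 or KO-O2 replicate 3) with each library left out. Fewer samples, a stricter threshold or a relabelled mouse are part of these alternatives, and the cause of the other changes was not tested. The 20 named rises and falls kept their direction in every alternative and lost their call in 64 of 600 cases, of which 19 had WT-O2 replicate 4 as room air. No paired analysis was possible because the labels give no replicate numbers that pair mice across groups. The number of mice, 3 or 4 per group, and the low counts of genes such as Gsdmd, Casp1 and Osgin1 limit the precision of the interaction.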
